A study of Homo sapiens with 4 samples.

Results

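The genes described here are 49 components of transforming growth factor beta (TGF-beta), activin and bone morphogenetic protein (BMP) signalling, out of 58174 genes in the deposited tables. They were chosen by symbol from the annotation, as ligands, latent binding proteins, receptors, SMADs, antagonists and targets, and all 49 were found and tested. RNA was sequenced from 4 libraries of 293FT cells, a human embryonic kidney line derived from HEK293 that carries the SV40 large T antigen. The 2 libraries of NIPBLmut cells carried mutant NIPBL and the 2 libraries of NIPBLwt cells carried wild-type NIPBL, which encodes a cohesin loading factor. The comparison asks which transcripts differ between these genotypes, and the study is titled for CHOPS syndrome and Cornelia de Lange syndrome. Both groups shared the 293FT background and were grown in medium with fetal bovine serum, and no TGF-beta, activin or BMP ligand is named among the additions. The labels give neither the kind of mutation nor the number of clones, and separate cultures are not stated, so the p-values reflect a spread between samples that may be technical only.

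In this pathway, secreted dimeric ligands bring type I and type II serine/threonine kinase receptors together, and the type I receptor phosphorylates receptor SMADs. TGF-beta and activin act mainly through SMAD2 and SMAD3, and BMPs mainly through SMAD1, SMAD5 and SMAD9. Phosphorylated SMADs join SMAD4, enter the nucleus and bind short DNA motifs, and they induce the inhibitory SMAD6 and SMAD7, which close a feedback loop. In the developing mouse kidney, BMP7 maintains nephron progenitors and GDF11 helps the ureteric bud to form.

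The expected counts summed to 31932304 and 32768728 in NIPBLmut libraries and to 31545743 and 33161120 in NIPBLwt libraries. NIPBL itself had 61.0 and 62.0 CPM (counts scaled to library size) in NIPBLmut libraries, against 41.8 and 44.5 CPM in NIPBLwt libraries. This level does not check the labels, as the labels do not describe the mutation. Markers of the kidney line had a summed level of 696 to 736 CPM in NIPBLmut and 1028 to 1175 CPM in NIPBLwt libraries over 10 genes. Of these DLK1 was at 0 in all 4 libraries, and edgeR called 1 higher (KRT8) and 3 lower (NEFM, VIM and LIN28B) among 9 tested. The neurofilament gene NEFM was nearly absent in NIPBLmut libraries, at 1.33 and 0.833 CPM, against 72.8 and 63.9 CPM in NIPBLwt libraries (log2 fold change -5.98, edgeR adjusted p = 0.0086), and the part of such line differences in the results below was not tested. The NIPBLwt libraries stood apart from each other, with a median log2 difference of 0.32 in size over the tested genes, against 0.10 between the NIPBLmut libraries. Among the 49 pathway genes the corresponding medians were 0.08 between the NIPBLmut libraries and 0.20 between the NIPBLwt libraries. Values without each NIPBLwt library are therefore given for the 7 called genes and for several others.

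The latent TGF-beta binding protein LTBP1, the activin subunits INHBA and INHBB, the co-receptor endoglin (ENG) and the matrix protein TGFBI were higher in NIPBLmut cells, and the inhibitory SMAD6 and the ligand GDF11 were lower. These 5 higher and 2 lower genes were called by edgeR's quasi-likelihood test at a Benjamini-Hochberg adjusted p under 0.05 over all tested genes. They make up 14.3% of the 49, and 5.81% of all 18984 tested genes were called (3.71% higher and 2.1% lower). The share of the 49 includes INHBA, ENG and TGFBI, which passed the filter on low counts through the NIPBLmut libraries in which they are high. The share is therefore not read against that of all genes. In bulk samples, fewer cells that express a gene and less RNA per cell cannot be told apart. DESeq2 called 7 higher and 3 lower, including all 7 of edgeR's, against 13.2% of all genes called by DESeq2 (6.82% higher and 6.35% lower). The median log2 fold change of NIPBLmut over NIPBLwt was -0.017 over the 49 genes and -0.0055 over all tested genes, and it was above 0 for 23 and below 0 for 26 of the 49. NIPBLmut and NIPBLwt libraries did not overlap in CPM at 39 of the 49, beside 63.2% of all tested genes. The calls and the spread of the other genes are drawn by role in the plot of log2 fold changes.

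**Figure D1:**
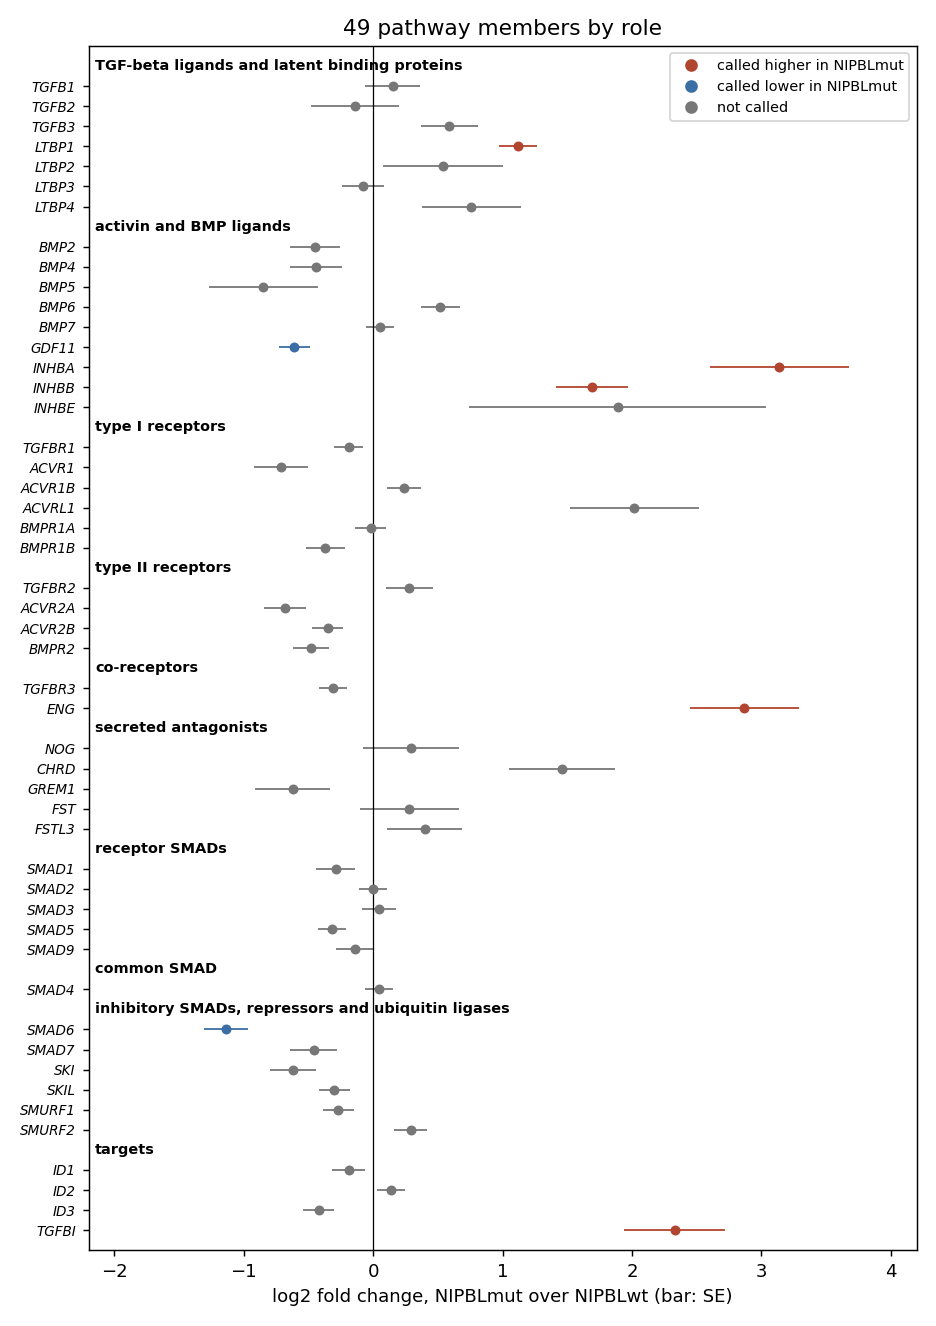
The log2 fold change of NIPBLmut over NIPBLwt (x axis, bar SE) is shown for the 49 genes in rows grouped by role. The 5 genes called higher lie between 1.12 and 3.14, the 2 called lower are GDF11 and SMAD6, and most receptors and SMADs lie within 1 of 0.

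For TGF-beta itself none of the ligands TGFB1, TGFB2 and TGFB3 was called by edgeR or DESeq2. LTBP1, which holds latent TGF-beta in the extracellular matrix, was called higher. LTBP1 (ENSG00000049323, chromosome 2, 32946972 to 33399509, plus strand) had 63.0 and 63.8 CPM in NIPBLmut libraries, against 32.7 and 25.5 CPM in NIPBLwt libraries. The groups did not overlap, and LTBP1 was the most abundant of the 5 higher genes in CPM. LTBP1 averaged 63.4 ± 0.515 CPM in NIPBLmut and 29.1 ± 5.08 CPM in NIPBLwt libraries (SD, n = 2 each), a log2 fold change of 1.12 (SE 0.15, edgeR adjusted p = 0.0305). The log2 fold change was 1.3 without NIPBLwt replicate 1 and 0.95 without NIPBLwt replicate 2. Tested protein-coding genes around LTBP1, 25 on each side, gave a median of 0.39, and with that median removed LTBP1 had 0.73 and was not called (edgeR adjusted p = 0.071). The mean length of the LTBP1 transcripts that the authors' estimate weights by abundance, as effective length, was 5356 and 5340 bases in NIPBLmut libraries and 5894 and 5921 bases in NIPBLwt libraries.

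The ligand TGFB1 had 5.86 and 4.80 CPM in NIPBLmut and 4.71 and 4.92 CPM in NIPBLwt libraries, and these ranges overlapped. TGFB1 exons overlap those of HNRNPUL1 on the other strand, and the strand setting of the counting is not given in the sources used here. TGFB3, the isoform that acts in palate fusion in mice, had 4.38 and 4.88 CPM in NIPBLmut and 3.29 and 2.85 CPM in NIPBLwt libraries, which did not overlap. Its log2 fold change of 0.59 (SE 0.22) had an unadjusted edgeR p of 0.0401 and was not called (edgeR adjusted p = 0.15). TGFB2 was under 0.75 CPM in every library. The other latent binding proteins were not called by edgeR. LTBP4 had 20.3 and 23.0 CPM in NIPBLmut and 17.8 and 7.66 CPM in NIPBLwt libraries, LTBP2 had 3.88 and 4.02 CPM in NIPBLmut and 3.93 and 1.47 CPM in NIPBLwt libraries, and LTBP3 had 10.03 to 11.8 CPM in NIPBLmut and 11.1 to 11.9 CPM in NIPBLwt libraries. The lower NIPBLwt library was replicate 2 for LTBP2 and LTBP4, and the LTBP2 log2 fold change was 1.41 without NIPBLwt replicate 1 and 0.0036 without NIPBLwt replicate 2, where LTBP4 had 1.48 and 0.28.

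Of the activin beta subunits, INHBA and INHBB were higher in NIPBLmut cells, and INHBA had the widest log2 fold change of the 49 genes. INHBA encodes the beta A subunit, whose homodimer is activin A, and INHBB encodes the beta B subunit of activin B. INHBA (ENSG00000122641, chromosome 7, 41667168 to 41705834, minus strand) had 2.07 and 3.48 CPM in NIPBLmut libraries, against 0.451 and 0.167 CPM in NIPBLwt libraries. These rest on 70 and 121 expected counts in NIPBLmut and on 14 and 5 in NIPBLwt libraries. INHBA rose by a log2 fold change of 3.14 (SE 0.54, edgeR adjusted p = 0.0399), with 4.01 without NIPBLwt replicate 1 and 2.61 without NIPBLwt replicate 2. It was the only one of the 7 genes called under all 13 alternatives (adjusted p up to 0.0498). INHBA passed the filter on low counts through its NIPBLmut libraries, in which it is high, so this adds no support to its call. Its effective length was 2993 and 3005 bases in NIPBLmut libraries and 4353 and 5131 bases in NIPBLwt libraries. INHBB (ENSG00000163083, chromosome 2, 120346143 to 120351808, plus strand) had 4.79 and 4.54 CPM in NIPBLmut libraries, against 1.71 and 1.17 CPM in NIPBLwt libraries. The groups stayed apart, with a log2 fold change of 1.69 (SE 0.28, edgeR adjusted p = 0.0389), while the genes around INHBB had a median of -0.36. The log2 fold change was 1.97 without NIPBLwt replicate 1 and 1.44 without NIPBLwt replicate 2. Its call was lost without NIPBLmut replicate 1 (1.65, edgeR adjusted p = 0.119) and without NIPBLmut replicate 2 (1.73, edgeR adjusted p = 0.111).

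INHBE, the beta E subunit, had the widest gap between the NIPBLwt libraries among the 49 genes. It had 27.6 and 29.2 CPM in NIPBLmut libraries, against 14.9 and 0.368 CPM in NIPBLwt libraries. All NIPBLmut values were above all NIPBLwt values, but the NIPBLwt libraries differed by 5.12 on the log2 scale (replicate 2 minus 1, -5.12), and only 10 of the 18984 tested genes, INHBE included, had a gap of that size or more. The log2 fold change of 1.89 (SE 1.15) was not called by edgeR (adjusted p = 0.325) or DESeq2 (adjusted p = 0.578), and it was 6.24 without NIPBLwt replicate 1 and 0.92 without NIPBLwt replicate 2.

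GDF11, a ligand of the activin receptors that acts in axial patterning, was lower in NIPBLmut cells. GDF11 (ENSG00000135414, chromosome 12, 55743280 to 55757278, plus strand) had 23.7 and 22.1 CPM in NIPBLmut libraries, against 33.8 and 36.3 CPM in NIPBLwt libraries. The gap between the groups was wider than either pair, with a log2 fold change of -0.61 (SE 0.12, edgeR adjusted p = 0.0483). It was -0.68 without NIPBLwt replicate 1 and -0.56 without NIPBLwt replicate 2. This call was the least stable of the 7 and held in 7 of 13 alternatives. It was lost with upper-quartile scaling (-0.53, edgeR adjusted p = 0.0552), with total counts (-0.44, edgeR adjusted p = 0.071), on TPM (-0.20, limma adjusted p = 0.35), without either NIPBLmut library (edgeR adjusted p = 0.309 and 0.472) and with the neighbourhood median removed (-0.55, edgeR adjusted p = 0.0737). GDF11 shares exon positions with SARNP on the other strand, which had 2381 and 2403 expected counts in NIPBLmut and 2423 and 2400 in NIPBLwt libraries. It also shares exon positions with AC023055.1 on the other strand, which had 98.4 and 92.1 expected counts in NIPBLmut and 187 and 214 in NIPBLwt libraries, lower in NIPBLmut as GDF11 was, and its part in the GDF11 counts was not tested.

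None of the 5 BMP ligands was called by edgeR or DESeq2, and of them BMP6 had an unadjusted edgeR p under 0.05. BMP7 was the most abundant, at 46.3 and 44.0 CPM in NIPBLmut and 44.7 and 42.2 CPM in NIPBLwt libraries, which overlapped (log2 fold change 0.054, SE 0.11). BMP6 had 13.7 and 13.3 CPM in NIPBLmut and 9.86 and 9.04 CPM in NIPBLwt libraries (0.52, SE 0.15, edgeR adjusted p = 0.0964). BMP2 had 12.01 and 12.3 CPM in NIPBLmut and 14.2 and 19.0 CPM in NIPBLwt libraries, BMP4 had 7.66 and 5.92 CPM in NIPBLmut and 9.32 and 9.07 CPM in NIPBLwt libraries, and BMP5 stayed under 0.5 CPM in all 4 libraries. The groups did not overlap at BMP2, BMP4, BMP5 or BMP6, as at 63.2% of all tested genes.

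**Figure D2:**
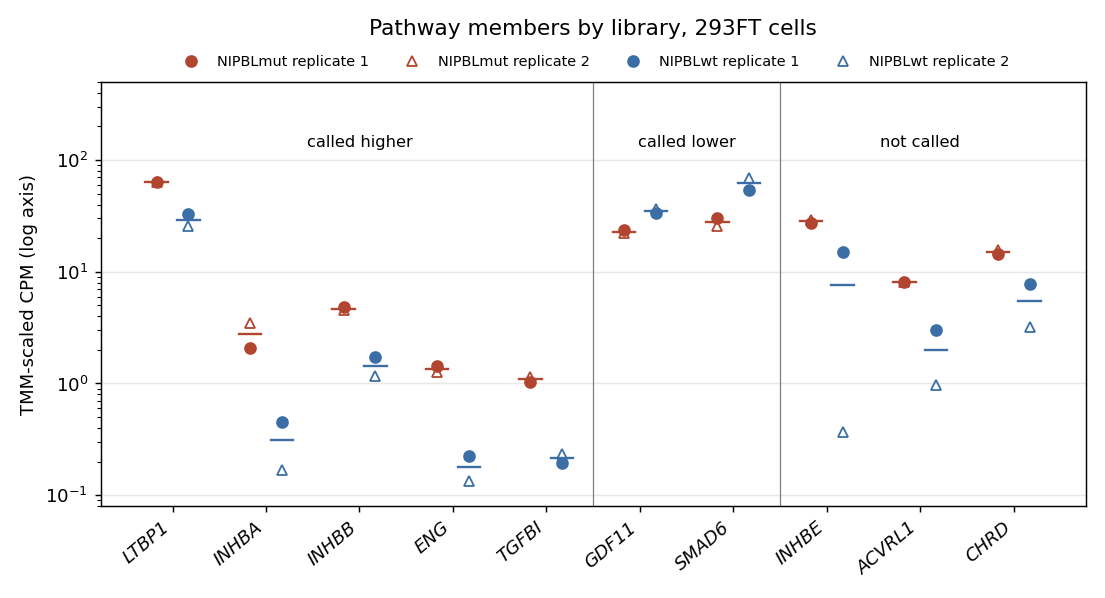
TMM-scaled CPM (log axis) of the 7 called genes and of INHBE, ACVRL1 and CHRD is shown by library, with NIPBLmut left of NIPBLwt for each gene and bars at the group mean of 2 libraries. NIPBLmut circles and triangles nearly coincide except at INHBA, while the NIPBLwt symbols of INHBE, at 14.9 and 0.368 CPM, lie far apart.

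Among the receptors only the co-receptor ENG was called by edgeR. Endoglin binds TGF-beta family ligands, with BMP9 among them, and is best known from endothelial cells, where it works with ACVRL1. ENG (ENSG00000106991, chromosome 9, 127815012 to 127854756, minus strand) had 1.42 and 1.26 CPM in NIPBLmut libraries, against 0.226 and 0.134 CPM in NIPBLwt libraries, from 48 and 44 expected counts in NIPBLmut and 7 and 4 in NIPBLwt libraries. The groups were well apart but low, and ENG passed the filter on low counts through its NIPBLmut libraries. ENG rose by a log2 fold change of 2.87 (SE 0.42, edgeR adjusted p = 0.0329), and the call was lost without NIPBLmut replicate 1 (2.78, edgeR adjusted p = 0.0541). ENG had 3.27 without NIPBLwt replicate 1 and 2.55 without NIPBLwt replicate 2. AL162586.1, an antisense gene over ENG exons, had 29 and 37 expected counts in NIPBLmut and 21 and 28 in NIPBLwt libraries.

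ACVRL1, the type I receptor that pairs with endoglin, had 8.11 and 8.16 CPM in NIPBLmut libraries, against 3.03 and 0.971 CPM in NIPBLwt libraries. The NIPBLmut libraries were nearly equal and above both NIPBLwt libraries, which differed from each other by -1.58 (log2, replicate 2 minus 1). The log2 fold change of 2.02 (SE 0.50) was not called by edgeR (adjusted p = 0.0729) but was called by DESeq2 (adjusted p = 0.000319), with no filter on low counts (edgeR adjusted p = 0.039), on TPM (limma adjusted p = 0.0399) and without NIPBLmut replicate 1 (edgeR adjusted p = 0.0427). It was 3.05 without NIPBLwt replicate 1 and 1.42 without NIPBLwt replicate 2. The endothelial markers TEK and VWF were higher in NIPBLmut libraries, as ENG and ACVRL1 were, and KDR was not, at 0.592 and 0.517 CPM in NIPBLmut and 1.16 and 0.602 CPM in NIPBLwt libraries. Over PECAM1, CDH5, KDR, TEK and VWF the summed level was 6.21 and 4.45 CPM in NIPBLmut and 2.998 and 1.87 CPM in NIPBLwt libraries. None of the 3 tested markers (KDR, TEK and VWF) was called by edgeR, while TEK and VWF had an unadjusted p under 0.05 and were called by DESeq2, and their part in the ENG and ACVRL1 values was not tested. PECAM1 and CDH5 were at 0.355 CPM or below in every library, and CDH5 was at 0 in 1 NIPBLwt library.

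None of the 6 type I receptors was called by edgeR, while DESeq2 called ACVRL1, and ACVR1 and ACVRL1 had an unadjusted edgeR p under 0.05. ACVR1, a BMP type I receptor, had 2.99 and 3.22 CPM in NIPBLmut and 5.13 and 5.02 CPM in NIPBLwt libraries (log2 fold change -0.71, SE 0.21, edgeR adjusted p = 0.0973), where the surrounding genes had a median of -0.51. The TGF-beta receptor TGFBR1 had 110.5 and 115 CPM in NIPBLmut and 127 and 130 CPM in NIPBLwt libraries (-0.19, SE 0.11). The BMP receptor BMPR1A had 86.0 and 83.8 CPM in NIPBLmut and 81.6 and 90.3 CPM in NIPBLwt libraries, which overlapped (-0.017, SE 0.12). The activin receptor ACVR1B had 0.24 and BMPR1B -0.37.

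Of the 4 type II receptors none was called by edgeR, although DESeq2 called ACVR2A, and 3 had an unadjusted edgeR p under 0.05 (29.8% of all tested genes). ACVR2A, which binds activins and several BMPs, had 10.4 and 8.85 CPM in NIPBLmut libraries, against 15.0 and 15.9 CPM in NIPBLwt libraries. Every NIPBLmut value lay below every NIPBLwt value (log2 fold change -0.68, SE 0.16), which edgeR did not call (adjusted p = 0.0648) and DESeq2 did (adjusted p = 0.0317). The genes around ACVR2A had a median of -0.49, and ORC4, which overlaps ACVR2A exons on the other strand, had 740 and 695 expected counts in NIPBLmut and 1167 and 1607 in NIPBLwt libraries. The activin receptor ACVR2B had 133 and 139 CPM in NIPBLmut and 183 and 164 CPM in NIPBLwt libraries (-0.35, SE 0.12, edgeR adjusted p = 0.126). The BMP receptor BMPR2 had 17.5 and 16.4 CPM in NIPBLmut and 21.9 and 25.2 CPM in NIPBLwt libraries (-0.48, SE 0.14, edgeR adjusted p = 0.0937), beside a median of -0.59 for the genes around it. TGFBR2, the type II receptor for TGF-beta, had 9.64 and 9.51 CPM in NIPBLmut and 8.64 and 7.13 CPM in NIPBLwt libraries. TGFBR3, the co-receptor betaglycan, had 28.7 and 29.5 CPM in NIPBLmut and 35.7 and 36.5 CPM in NIPBLwt libraries (-0.31, SE 0.11, edgeR adjusted p = 0.133), with -0.32 around it.

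Levels can be compared between genes per length, in TPM. TGFBR1 and BMPR1A led the receptors, at 24.0 to 24.7 TPM and 25.4 to 27.8 TPM in NIPBLmut libraries and at 23.4 to 23.9 TPM and 20.3 to 23.7 TPM in NIPBLwt libraries, and the order of these 2 differed between the genotypes. ACVR2B and ACVR1B followed, at means of 13.4 and 11.7 TPM in NIPBLmut and 13.5 and 9.09 TPM in NIPBLwt libraries. TGFBR2 stood near the bottom, at 1.84 and 1.82 TPM in NIPBLmut and 1.47 and 1.16 TPM in NIPBLwt libraries, and ENG was the lowest of the 12. ACVRL1 was 11th of 12 in NIPBLwt libraries, at 1.31 and 0.51 TPM, and had 4.19 and 4.61 TPM in NIPBLmut libraries, above TGFBR2, ACVR1, BMPR2, BMPR1B and ACVR2A there.

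**Figure D3:**
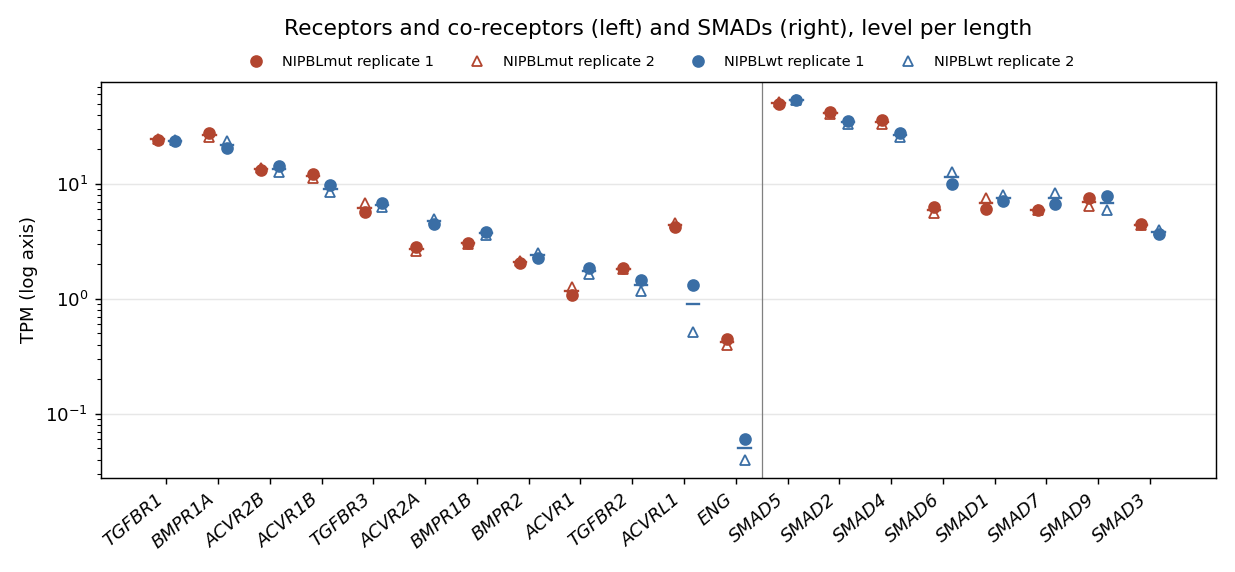
TPM (log axis), the level per length as deposited, is shown for 12 receptors and co-receptors and 8 SMADs, each ordered by its NIPBLwt mean, with NIPBLmut left of NIPBLwt and bars at the mean of 2 libraries. TGFBR1 is near 24 TPM in both genotypes, and ENG, ACVRL1, ACVR2A and SMAD6 show the widest gaps between the genotypes.

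None of the receptor SMADs, nor SMAD4, was called by edgeR or DESeq2, and among them SMAD5 had an unadjusted edgeR p under 0.05. SMAD2 had 100.3 and 99.3 CPM in NIPBLmut and 99.0 and 101 CPM in NIPBLwt libraries, a log2 fold change of -0.0027 (SE 0.11). SMAD3 had 18.0 and 17.4 CPM in NIPBLmut and 16.7 and 17.6 CPM in NIPBLwt libraries, with 0.043 (SE 0.13), and SMAD4 had 75.7 and 79.3 CPM in NIPBLmut and 75.4 and 74.9 CPM in NIPBLwt libraries, with 0.045 (SE 0.11). SMAD5 had 176 and 171 CPM in NIPBLmut and 208 and 227 CPM in NIPBLwt libraries, which did not overlap (-0.32, SE 0.11, edgeR adjusted p = 0.136). SMAD1 had -0.29 (SE 0.15) and SMAD9 -0.14 (SE 0.15). Per length, SMAD5 was the most abundant SMAD, at means of 50.5 TPM in NIPBLmut and 53.5 TPM in NIPBLwt libraries, followed by SMAD2 and SMAD4.

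Inhibitory SMAD6 was the lower SMAD. It binds activated BMP type I receptors and SMAD1 and limits BMP signals, and its gene is itself induced by them. SMAD6 (ENSG00000137834, chromosome 15, 66702228 to 66782848, plus strand) had 30.6 and 25.6 CPM in NIPBLmut libraries, against 54.2 and 69.7 CPM in NIPBLwt libraries. The highest NIPBLmut library was well below the lowest NIPBLwt library. SMAD6 averaged 28.1 ± 3.51 CPM in NIPBLmut and 61.9 ± 11.0 CPM in NIPBLwt libraries (SD, n = 2 each), a log2 fold change of -1.14 (SE 0.17, edgeR adjusted p = 0.0358), and it was -1.33 without NIPBLwt replicate 1 and -0.95 without NIPBLwt replicate 2. The call was lost without NIPBLmut replicate 2 (-1.02, edgeR adjusted p = 0.0825) and on TPM (-0.83, limma adjusted p = 0.053), and the genes around SMAD6 had a median of 0.04. SMAD7, which also inhibits TGF-beta receptors, had 17.8 and 16.98 CPM in NIPBLmut and 20.3 and 27.4 CPM in NIPBLwt libraries, with no overlap and a log2 fold change of -0.46 (SE 0.18) that was not called (edgeR adjusted p = 0.159) and was -0.68 without NIPBLwt replicate 1 and -0.23 without NIPBLwt replicate 2.

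The other negative regulators of SMADs were not called by edgeR or DESeq2. The corepressor SKI had 8.88 and 8.91 CPM in NIPBLmut and 12.1 and 15.3 CPM in NIPBLwt libraries (log2 fold change -0.62, SE 0.18, edgeR adjusted p = 0.0963). Its relative SKIL had -0.30 (SE 0.12), and the ubiquitin ligases SMURF1 and SMURF2 had -0.27 (SE 0.12) and 0.29 (SE 0.13). NIPBLmut and NIPBLwt libraries overlapped at none of the 6 genes of this role, SMAD6 and SMAD7 included (63.2% of all tested genes do not overlap), and 5 of the 6 had a log2 fold change below 0 under every scaling tried. Of the 6, 4 had an unadjusted edgeR p under 0.05, beside 29.8% of all tested genes.

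Promoters from RefSeq (build GRCh38.p14) were found for 43 of the 49 genes and searched on both strands, from 250 bases before to 50 after the start site, for the SMAD box CAGAC, its palindromic form GTCTAGAC and the GC-rich BMP element GGCGCC, none of which contains another. The 250 bases before the start are printed for SMAD6 and SMAD7, which set the called inhibitory SMAD beside the uncalled relative, and for LTBP1 and INHBB, called higher in NIPBLmut. They run 5′ to 3′ on the gene's strand, with matches in capitals. SMAD6 is at chr15:66701986-66702235 (plus strand), SMAD7 at chr18:48950966-48951215 (minus strand), LTBP1 at chr2:32946703-32946952 (plus strand) and INHBB at chr2:120345886-120346135 (plus strand).
SMAD6: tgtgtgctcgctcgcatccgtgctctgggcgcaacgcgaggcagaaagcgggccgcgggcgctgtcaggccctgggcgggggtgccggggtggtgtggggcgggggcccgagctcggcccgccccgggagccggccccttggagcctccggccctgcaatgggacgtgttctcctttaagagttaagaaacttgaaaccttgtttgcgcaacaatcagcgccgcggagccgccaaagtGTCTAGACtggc
SMAD7: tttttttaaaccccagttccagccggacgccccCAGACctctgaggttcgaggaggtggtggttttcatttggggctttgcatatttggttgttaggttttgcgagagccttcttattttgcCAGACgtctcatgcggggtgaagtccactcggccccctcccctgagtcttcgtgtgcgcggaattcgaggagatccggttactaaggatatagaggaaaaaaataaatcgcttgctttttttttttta
LTBP1: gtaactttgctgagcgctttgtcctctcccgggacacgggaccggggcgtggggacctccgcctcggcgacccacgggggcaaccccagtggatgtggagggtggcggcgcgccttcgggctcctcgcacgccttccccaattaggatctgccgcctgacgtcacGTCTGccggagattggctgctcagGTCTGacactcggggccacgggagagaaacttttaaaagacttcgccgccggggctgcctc
INHBB: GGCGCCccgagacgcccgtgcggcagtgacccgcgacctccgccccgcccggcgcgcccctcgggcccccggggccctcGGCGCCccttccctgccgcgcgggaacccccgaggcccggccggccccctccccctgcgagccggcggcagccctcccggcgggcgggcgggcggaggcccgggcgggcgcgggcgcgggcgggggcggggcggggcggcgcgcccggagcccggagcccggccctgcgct
The SMAD6 window was the only one of the 43 with GTCTAGAC, which begins 12 bases before the start site (position -12). This motif is held by 0.201% of the 27305 promoters searched. The SMAD7 window lies inside the annotated gene, whose 5′ end is at 48952052, and the bases before that end were not searched. The lack of GTCTAGAC at SMAD7 therefore covers the printed window only. CAGAC or its reverse complement GTCTG was in 19 of the 43, SMAD7 and LTBP1 among them, beside 45% of all promoters, and GGCGCC was in 15 of the 43, INHBB among them, beside 19% of all. Of the called genes not printed, GDF11 and ENG held none of these motifs. INHBA held CAGAC only after the start site (position 28), and TGFBI held GGCGCC (position -111). A match describes letters only, and binding was not measured.

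Of the 5 secreted antagonists none was called by edgeR, while CHRD had an unadjusted p under 0.05 and was called by DESeq2. CHRD encodes chordin, which sequesters BMPs. It had 14.4 and 15.8 CPM in NIPBLmut libraries, against 7.74 and 3.18 CPM in NIPBLwt libraries. Both NIPBLmut values were higher, but the NIPBLwt pair differed by -1.27 (log2, replicate 2 minus 1), and the log2 fold change of 1.46 (SE 0.41, edgeR adjusted p = 0.0885 and DESeq2 adjusted p = 0.00166) stood beside 0.67 for the surrounding genes. It was 2.23 without NIPBLwt replicate 1 and 0.96 without NIPBLwt replicate 2. THPO, which overlaps CHRD exons on the other strand, had 63 and 51 expected counts in NIPBLmut and 33 and 8 in NIPBLwt libraries. The BMP antagonist noggin (NOG) had 8.31 and 6.23 CPM in NIPBLmut and 7.96 and 3.95 CPM in NIPBLwt libraries, which overlapped, and its log2 fold change was 0.86 without NIPBLwt replicate 1 and -0.13 without NIPBLwt replicate 2. GREM1, another BMP antagonist, had 1.12 and 1.03 CPM in NIPBLmut and 1.52 and 1.81 CPM in NIPBLwt libraries (-0.62, SE 0.29, edgeR adjusted p = 0.222). The activin antagonists follistatin (FST) and FSTL3 had 0.28 (SE 0.38) and 0.40 (SE 0.29), and FSTL3 had 0.065 without NIPBLwt replicate 1 and 0.81 without NIPBLwt replicate 2.

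Of the 4 listed targets TGFBI was called by edgeR. TGFBI encodes an extracellular matrix protein induced by TGF-beta in many cells. TGFBI (ENSG00000120708, chromosome 5, 136028895 to 136063818, plus strand) had 1.03 and 1.15 CPM in NIPBLmut libraries, against 0.193 and 0.234 CPM in NIPBLwt libraries, from 35 and 40 expected counts in NIPBLmut and 6 and 7 in NIPBLwt libraries. It stayed close to 1 CPM in NIPBLmut cells and passed the filter through these libraries. TGFBI rose by a log2 fold change of 2.33 (SE 0.39, edgeR adjusted p = 0.0384), with 2.19 without NIPBLwt replicate 1 and 2.47 without NIPBLwt replicate 2. It was not called without NIPBLmut replicate 1 (edgeR adjusted p = 0.11), without NIPBLmut replicate 2 (edgeR adjusted p = 0.187) or on TPM (0.60, limma adjusted p = 0.059).

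The inhibitors of differentiation ID1, ID2 and ID3 are early BMP targets that dimerise with bHLH transcription factors and keep them off DNA. None of the 3 was called by edgeR or DESeq2, and ID3 had an unadjusted edgeR p under 0.05. ID3 had 73.5 and 63.8 CPM in NIPBLmut and 90.2 and 93.7 CPM in NIPBLwt libraries (log2 fold change -0.42, SE 0.12, edgeR adjusted p = 0.0984). ID1 had 26.7 and 24.2 CPM in NIPBLmut and 27.5 and 30.4 CPM in NIPBLwt libraries (-0.19, SE 0.13), and ID2 had 139 and 133 CPM in NIPBLmut and 127 and 120 CPM in NIPBLwt libraries (0.14, SE 0.11). At none of the 3 did the groups overlap, as at 63.2% of all tested genes, and the differences were small beside SMAD6.

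The control libraries differed from each other by more than the genotypes did at 12 of the 49 genes. The share over all tested genes was not taken, so this count is not read as a trait of the 49. Their median control difference was 0.20 in size, beside 0.32 over all tested genes. NIPBLwt replicate 2 was lower by over 1 on the log2 scale at 7 genes, and no gene of the 49 had it higher by as much. Over all tested genes, 9.61% had NIPBLwt libraries that differed by over 1 in either direction. Setting NIPBLmut against each NIPBLwt library in turn gave the same sign at 43 of the 49 genes. Both settings use the same NIPBLmut libraries, and the sign is nearly fixed at the 39 genes whose groups do not overlap. The count therefore adds no separate support, and its share over all tested genes was not taken. The 6 with opposite signs were BMPR1A, NOG, FST, SMAD2, SMAD3 and SMAD9, none of them called.

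**Figure D4:**
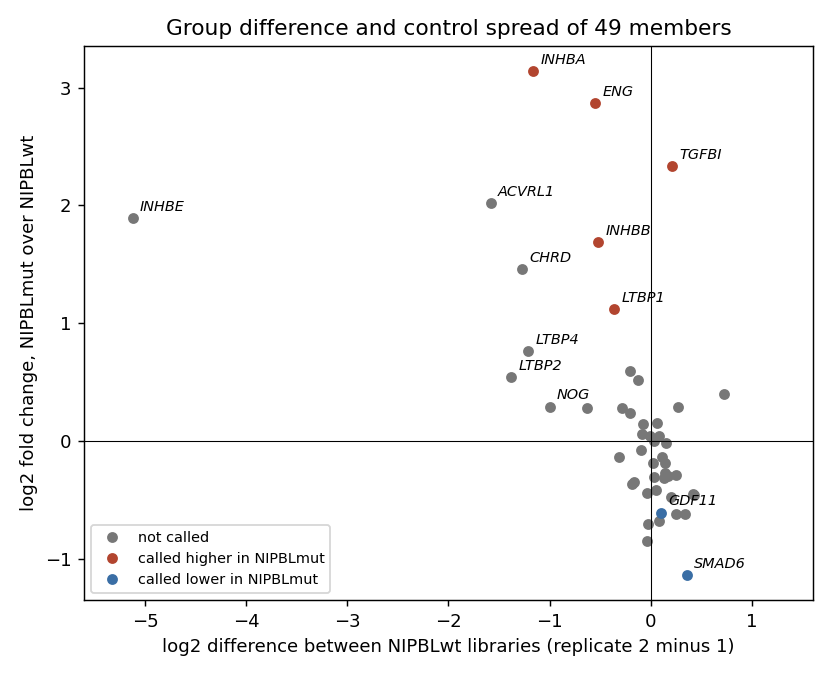
Each point is 1 of 49 genes, with the log2 difference between the NIPBLwt libraries on the x axis and the log2 fold change of NIPBLmut over NIPBLwt on the y axis. INHBE lies far left at -5.12, ACVRL1, CHRD, LTBP2 and LTBP4 lie left of -1, and of the 7 called genes INHBA alone lies left of -1.

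Pathway genes outside the 49 were read in 7 lists of 139 genes in all, 116 of them tested. BAMBI, TGIF1, THBS1 and RUNX2 are shared between lists and count once in these totals. Of the 116 tested, 8 were called higher and 3 lower by edgeR (9.48%, beside 5.81% of all tested genes). The share includes LEFTY1, GDF10 and NOV, which passed the filter on low counts through the NIPBLmut libraries. It is therefore not read against that of all genes. Among other ligands 3 of 12 tested were higher and none lower. LEFTY1, an antagonist of NODAL, had 18.7 and 16.1 expected counts in NIPBLmut libraries and none in NIPBLwt libraries, at least 5.19-fold higher against a floor of 3 counts per library. It passed the filter on low counts through its NIPBLmut libraries, so its call gives no support, and its reads may be shared with the near-identical LEFTY2, which had 10.3 and 8.88 expected counts in NIPBLmut and 4.26 and 1.24 in NIPBLwt libraries. GDF7, a BMP family ligand, had 62.1 and 61.3 CPM in NIPBLmut and 35.2 and 23.8 CPM in NIPBLwt libraries (log2 fold change 1.06, edgeR adjusted p = 0.0474), but 0.56 with the neighbourhood median removed (edgeR adjusted p = 0.169). GDF10, related to BMP3, had 1.12 and 1.44 CPM in NIPBLmut and 0.322 and 0.201 CPM in NIPBLwt libraries (2.27, edgeR adjusted p = 0.0439). It was not called without either NIPBLmut library or with the neighbourhood median removed (2.31, edgeR adjusted p = 0.0541). GDF10 also passed the filter through its NIPBLmut libraries, so its call gives no support.

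Among other antagonists 2 of 10 tested were higher and none lower. CHRDL1, a chordin-like BMP antagonist, had 39.6 and 39.99 CPM in NIPBLmut libraries, against 5.22 and 3.05 CPM in NIPBLwt libraries. The NIPBLmut libraries were many times above both NIPBLwt libraries (log2 fold change 3.26, SE 0.26, edgeR adjusted p = 0.0141). NOV, a CCN family matrix protein that binds BMP2, had 3.37 and 3.16 CPM in NIPBLmut and 0.516 and 0.268 CPM in NIPBLwt libraries (3.04, SE 0.38, edgeR adjusted p = 0.0289). CHRDL1 and NOV were called under all 13 alternatives. NOV had 16 and 8 expected counts in NIPBLwt libraries and passed the filter on low counts through its NIPBLmut libraries, so its call gives no support. Other co-receptors and pseudoreceptors had none called among 10 tested, while DESeq2 called 2 (13.2% of all tested genes), and 5 had an unadjusted edgeR p under 0.05 (29.8% of all).

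Genes of TGF-beta latency and activation had 2 higher and 1 lower among 17 tested. ITGB8, whose heterodimer with the alpha v integrin releases TGF-beta from its latent complex, had 5.36 and 5.57 CPM in NIPBLmut and 2.03 and 2.38 CPM in NIPBLwt libraries (log2 fold change 1.31, edgeR adjusted p = 0.0397). Its partner ITGAV moved the other way, at 71.4 and 69.1 CPM in NIPBLmut and 113 and 135 CPM in NIPBLwt libraries (-0.82, edgeR adjusted p = 0.0373). The genes around ITGAV had a median of -0.40, and with that median removed ITGAV had -0.42 and was not called (edgeR adjusted p = 0.143). TLL1, a tolloid-like protease that cleaves chordin, had 7.66 and 7.18 CPM in NIPBLmut and 3.77 and 3.18 CPM in NIPBLwt libraries (1.09, edgeR adjusted p = 0.0449). With the neighbourhood median removed TLL1 kept 1.09 but was not called (edgeR adjusted p = 0.0589). The calls of ITGB8, ITGAV and TLL1 were lost without either NIPBLmut library (edgeR adjusted p from 0.177 to 0.308).

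SMAD partners and regulators had 1 higher and 1 lower among 30 tested. PPP1R15A, a phosphatase subunit that with SMAD7 acts on TGFBR1, had 33.1 and 38.1 CPM in NIPBLmut and 20.6 and 20.4 CPM in NIPBLwt libraries (log2 fold change 0.80, edgeR adjusted p = 0.0369). With the neighbourhood median removed PPP1R15A had 0.63 and was not called (edgeR adjusted p = 0.066). ZEB2, a SMAD-binding repressor, had 9.05 and 9.94 CPM in NIPBLmut and 18.7 and 19.3 CPM in NIPBLwt libraries (-1.0, edgeR adjusted p = 0.0312), with -0.49 for the genes around it and -0.51 with that median removed (edgeR adjusted p = 0.11). PPP1R15A and ZEB2 were not called without either NIPBLmut library (edgeR adjusted p from 0.0952 to 0.286).

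Among downstream genes, of 22 other TGF-beta targets tested edgeR called CALD1, which encodes an actin-binding protein, lower and none higher (4.55%, near the 5.81% of all tested genes). DESeq2 called 2 higher, COL1A1 and BHLHE40, and 1 lower in this list. CALD1 had 101 and 98.0 CPM in NIPBLmut and 148 and 153 CPM in NIPBLwt libraries (log2 fold change -0.60, edgeR adjusted p = 0.0439). It lost its call without either NIPBLmut library, with total counts and on TPM. The call was also lost with the neighbourhood median removed (-0.41, edgeR adjusted p = 0.103). Of 19 other BMP targets tested none was called by edgeR, while DESeq2 called 3, all lower (6.35% of all tested genes were lower by DESeq2), and 7 had an unadjusted edgeR p under 0.05 (29.8% of all). BAMBI is among these 3 and also among the 2 that DESeq2 called in the list of other co-receptors. Median log2 fold changes were 0.42 for the other TGF-beta targets and -0.30 for the other BMP targets, beside -0.0055 over all tested genes. Lists that hold no targets by name ran from -0.052 (SMAD partners and regulators) to 0.49 (other ligands). The target medians are therefore not read as pathway output, and their change with scaling was not computed.

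Markers of fibroblasts, in which TGF-beta genes are abundant, also moved with genotype. Their summed level over 10 genes was 21.7 and 21.7 CPM in NIPBLmut and 16.1 and 10.8 CPM in NIPBLwt libraries. Of 6 tested 2 were called higher and 1 lower by edgeR, beside 5.81% of all tested genes called. DESeq2 called 3 higher and 1 lower, beside 13.2% of all. The log2 fold changes of the 6 ran from -2.04 to 2.84. COL1A2 and FAP were at 0 in all 4 libraries, and THY1 did not exceed 0.0335 CPM. The part of these genes in the results above was not tested. Of 5 blood cell markers CD3E and HBB were at 0 in all 4 libraries. The summed level over the 5 was 3.37 and 3.33 CPM in NIPBLmut and 1.42 and 0.904 CPM in NIPBLwt libraries. The 1 blood marker tested had a log2 fold change of 1.75. DESeq2 called it higher (6.82% of all tested genes were), edgeR did not, and its part in the results above was not tested.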

How the data were processed

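RNA-seq of 4 libraries of 293FT cells (2 NIPBLmut, 2 NIPBLwt) was read from 1 table per library. Per the labels' protocols, ribosomal RNA was removed and strand-specific libraries were made. The submitters' processing notes name STAR 2.7.3a, RSEM 1.3.1 and the build hg38. Neither annotation release nor strand setting was given in the sources used here. Per the file headers, the authors deposited expected counts (RSEM's estimated reads per gene, not normalized) and TPM (per effective length, scaled to a common total), with effective lengths. FPKM were not used. Gene identifiers were matched to GENCODE 29, where 57836 of 58174 were found.

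Expected counts, rounded to whole numbers, went into edgeR 4.0.16 under R 4.3.3 (filterByExpr, TMM, robust quasi-likelihood, Benjamini-Hochberg over 18984 genes, threshold 0.05). CPM are TMM-scaled, and the standard error is the log2 fold change over the root of the F statistic. At these depths 1 count was 0.0287 to 0.0335 CPM, and intervals and floors cover counting error only. The replicate pairs differed beyond sampling noise (chi-square per gene 3.99 for NIPBLmut, 46.8 for NIPBLwt), and each library was counted. This spread does not show that the libraries came from separate cultures, and it may be technical only. Alternatives were RLE, upper-quartile and total-count scaling, 2 filters, DESeq2 1.42.0, limma 3.58.1 on log2(TPM + 1), a replicate block, and leaving out each library. Removing the neighbourhood median (25 tested protein-coding genes on each side) was chosen after the data were seen. The test was tested on simulated counts with known changes. Pathway genes given in full were those called by edgeR or DESeq2, those with a log2 fold change of at least 1 in size, and the 2 of each role with the smallest p. Further pathway genes are given as description. The 49 genes and the lists were chosen with earlier results of these data known.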

Additional observations from a re-analysis of the deposited data

How the results depend on the processing

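The calls of the 7 genes depended most on which libraries gave the spread. Called higher among the 49 were 3 with the stricter filter, under which ENG and TGFBI were not tested, and from 3 to 16 when 1 library was left out. Called lower were 1 with upper-quartile scaling, 1 with total counts, 0 on log2(TPM + 1) by limma, 1 with the neighbourhood median removed, and from 0 to 20 when 1 library was left out. The high ends came without NIPBLwt replicate 1, where the spread comes from the close NIPBLmut pair alone, and LTBP1 and INHBA remained called when either NIPBLmut library was left out, with SMAD6 also called without NIPBLmut replicate 1 and ENG without NIPBLmut replicate 2. INHBA was called under all 13 alternatives, LTBP1 in 12, INHBB and SMAD6 in 11, and GDF11 in 7 of 13, and ENG in 11 and TGFBI in 9 of 12.

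The median over the 49 was 0.069 with upper-quartile scaling, 0.16 with total counts and 0.13 on TPM, as the median of all genes moved to 0.078, 0.17 and 0.12, and it ranged from -0.08 to -6.9e-05 when 1 library was left out. With the neighbourhood median removed, 5 uncalled genes changed sign: BMPR2 (0.11), TGFBR3 (0.012), SMAD4 (-0.14), TGFB2 (0.007) and ID2 (-0.33). Among all genes, 1112 were higher with total counts, 1132 higher and 786 lower with no filter, 1294 and 1206 with DESeq2, 443 and 167 with the neighbourhood median removed, and 119 lower on TPM, and leaving out 1 library gave from 335 to 5909 higher and from 64 to 5931 lower.

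In the 7 other lists 5 were higher with the stricter filter, on TPM and with the neighbourhood median removed, and 15 with DESeq2. Lower were 7 with DESeq2, 0 on TPM and 0 with the neighbourhood median removed, and leaving out 1 library gave from 4 to 46 higher and from 0 to 33 lower. The cause of these shifts was not tested.

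Replicate numbers share no stated culture or day, and the deviations of same-numbered libraries correlated at -0.0593 across 18984 genes. With the replicate block 1470 genes were higher and 809 lower, in the other lists 13 were higher and 5 lower, all 7 pathway calls remained, and ACVRL1 (2.18, edgeR adjusted p = 0.00367) and CHRD (1.58, edgeR adjusted p = 0.00943) were added. ENG, TGFBI and INHBA passed the filter on low counts through their NIPBLmut libraries and rest on few NIPBLwt counts, which limits their folds.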
